A study of Mus musculus with 15 samples.

Results

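Neurogliaform interneurons of the hippocampus were sought among single nuclei by their transcripts for Lamp5, which encodes a lysosomal membrane protein of a class of inhibitory neurons, and Adarb2, an RNA-editing family gene of interneurons born in the caudal ganglionic eminence. Nuclei were chosen by a UMI gate (a UMI is 1 counted RNA molecule): at least 1000 genes detected, at least 2 UMIs of Gad1 and Gad2 together, at least 3 of Adarb2, at least 1 of Lamp5, at most 1 of Sst and 0 of Vip. The gate selected 1108 of 134019 barcodes, of which 124527 had at least 1000 genes and 14054 also met the Gad1 and Gad2 minimum. The 14054 are called GABAergic barcodes here for that minimum alone. These 1108 nuclei are called members here. The label neurogliaform was judged by 4 class markers (Lamp5, Adarb2, Ndnf and Reln). It held in full for only some of the members: 111 members (10.0%) lay in a cluster that carried all 4. Another 391 (35.3%) lay in a cluster led by Pde11a and Lhx6 that carried 2 of the 4 (Lamp5 and Reln, since Ndnf and Adarb2 were below 2 times the median cluster). The other 606 lay in further clusters, most of them named for other cells. Of these clusters 3 carried 3 of the 4 markers. They were named for Vip and Cck basket cells, oligodendrocytes and thalamic or midbrain GABAergic cells and held 33, 35 and 3 members.

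As background, neurogliaform and ivy cells are small interneurons with dense axons that release GABA into the surrounding volume and so act slowly, through extrasynaptic GABA-A receptors and through GABA-B receptors, on pyramidal cell dendrites. In the hippocampus they arise from both the caudal ganglionic eminence, which gives Ndnf- and Reln-rich cells of the stratum lacunosum-moleculare, and the medial ganglionic eminence, which gives Lhx6-positive cells that often make nitric oxide (Nos1) and neuropeptide Y (Npy). Lamp5 lies on chromosome 2 at 136052239 to 136069917 (plus strand), Adarb2 on chromosome 13 at 8202866 to 8768747 (plus strand), Ndnf on chromosome 6 at 65671590 to 65712326 (plus strand), Reln on chromosome 5 at 21884454 to 22344702 (minus strand) and Lhx6 on chromosome 2 at 36081953 to 36105408 (minus strand), all in mouse build GRCm38. Counts are per gene, so no value refers to a particular exon.

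The nuclei came from dorsal hippocampal punches of 15 adult female C57BL/6J mice, 1 library per mouse. The NP group held 6 age-matched nulliparous virgins, the ControlPP group 4 dams that had bred, given birth, nursed and weaned a litter, and the StressPP group 5 dams that had in addition been kept on limited nesting material and separated daily from the pups in late lactation. The study design asked whether reproductive experience, and stress during it, left a lasting mark on hippocampal cells. The mice carried no transgene or deletion. The punches were cut around the dorsal hippocampus and could hold bordering tissue, and each mouse was processed in 1 of 3 labelled batches, of which batch 1 held 2 NP mice and 1 StressPP mouse and no ControlPP mouse. The batch labels differ here from the study's methods, which place every group in each batch.

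Per mouse there were 5789 to 12738 barcodes, 40602582 to 96211264 UMIs and 42 to 124 members (median 68). The members' median UMI count was 13921 over all mice and ranged from 10639 to 20504 between mice, with 3563 to 4820 genes. Of all barcodes, 4462 (3.33%) were present in more than 1 library, as were the barcodes of 41 members, but none of those was a member in both libraries. A doublet score, calculated within each library, marked 146 members (13.2%; 1 to 37 per mouse). A Lamp5 UMI was also found in 12.4% of excitatory-type barcodes (median 18897 UMIs), in 4.74% of GABAergic barcodes outside the gate (median 10814.5 UMIs) and in 1.09% of oligodendrocyte-type barcodes (median 3099 UMIs). The Adarb2 minimum of 3 UMIs was met by 38.8%, 69.4% and 11.3% of the same 3 sets, so neither threshold marked the class by itself.

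All GABAergic barcodes were clustered on genes other than those of the gate and the class markers, to see what the gate had collected. They were not all GABAergic neurons, since 3 excitatory-like clusters held 2199, 1554 and 263 of them and other clusters carried glial markers. Besides the 2 clusters with the highest Lamp5 levels, 235 members (21.2%; 10 to 30 per mouse) fell in 3 excitatory-like clusters, 2 of them with Glis3 and Chst9 among their leading genes and 1 with Dkk3 and Neurod6, in which Slc17a7, the vesicular glutamate transporter, stood at 168 to 200 CPM (a gene's UMIs over all UMIs of the set, on the standard CPM scale). A further 168 members (15.2%) fell in 4 striatal projection neuron-like clusters led by genes such as Rgs9 and Rarb. The remaining 203 members (18.3%; 5 to 29 per mouse) were spread over other clusters. The striatal-like members were unevenly spread, with 0 in 6 mice and at least 10 in 5 mice: 44 in NP mouse 35, 25 in NP mouse 73, and 10, 46 and 30 in StressPP mice 43, 75 and 77. Those 5 mice included no ControlPP mouse, where the striatal-like members numbered 0 to 5.

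**Figure D1:**
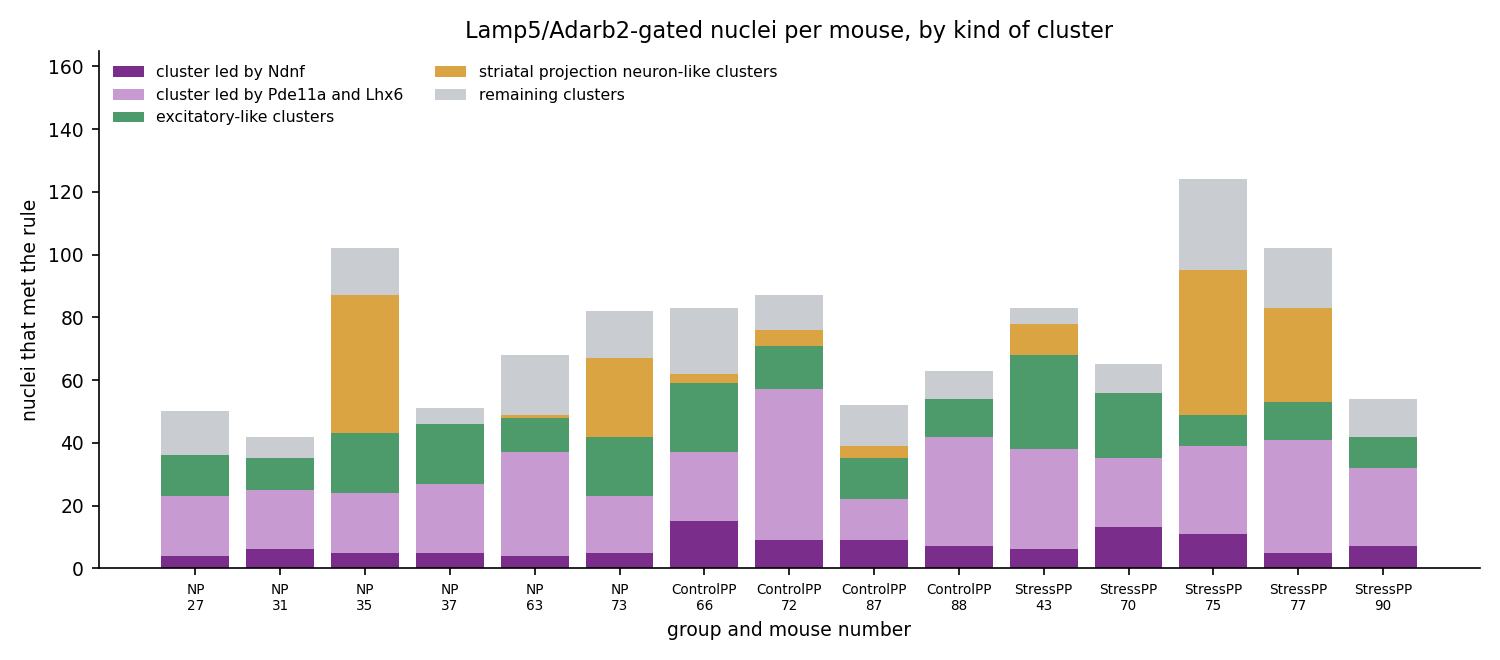
Number of members per mouse (y axis, nuclei) for the 15 mice by group (x axis, mouse number), stacked by kind of cluster. The cluster led by Ndnf gave 4 to 15 members per mouse and the cluster led by Pde11a and Lhx6 gave 13 to 48, while the striatal projection neuron-like clusters ranged from 0 to 46.

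The nuclei on either side of the gate's thresholds are given as a description only, since the gate used Lamp5 and the 2 clusters were picked for their high Lamp5 level. Among barcodes that met the rest of the gate but had no Lamp5 UMI, 139 of 8658 (1.61%) lay in the 2 Lamp5-high clusters. With 1 Lamp5 UMI it was 158 of 644 members (24.5%), with 2 it was 135 of 213 (63.4%) and with 3 or more it was 209 of 251 (83.3%). The Adarb2 threshold behaved differently, since 25.8% of the 66 members with exactly 3 Adarb2 UMIs lay in those clusters, against 37.2% of the 113 nuclei just outside with 2. At the lowest allowed GABA signal, 2 UMIs of Gad1 and Gad2 together, 4 of 198 members (2.02%) lay in them, and of the 213 members with no Gad2 UMI, 3 did (1.41%). The doublet score marked 4.38% of the 502 members in the 2 clusters and 20.5% of the 606 others. In the other direction the gate passed over 334 of the 836 nuclei of the 2 clusters, 187 for lack of a Lamp5 UMI and 193 for fewer than 3 Adarb2 UMIs, some for both.

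**Figure D2:**
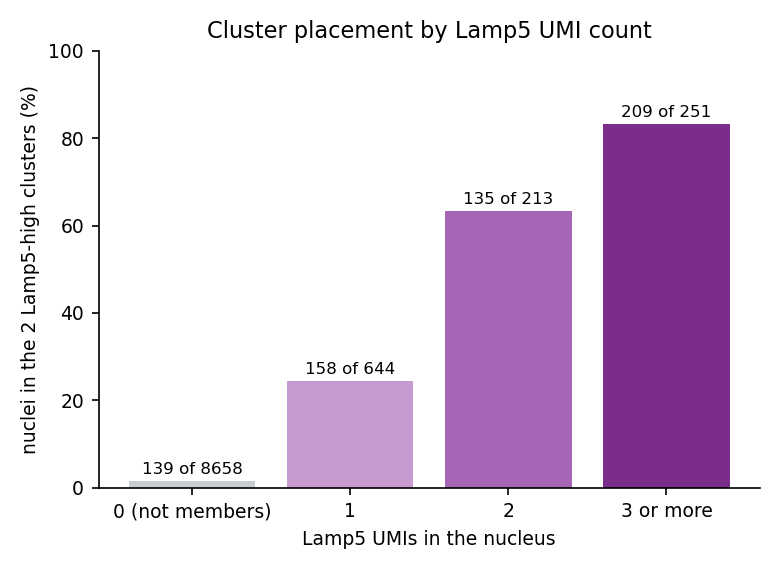
Share of nuclei lying in the 2 clusters with the highest Lamp5 level (y axis, %) by number of Lamp5 UMIs (x axis), among nuclei that met the rest of the gate. The share was 1.61% with no Lamp5 UMI, 24.5% with 1 and 83.3% with 3 or more; counts stand above the bars.

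The cluster led by Ndnf carried the markers of the label and is called neurogliaform-like. Levels below are CPM over the pooled UMIs of a set, and since a cluster's genes were used to form it, the differences between clusters are descriptions with no test. Only 3 mice gave 10 or more members there, ControlPP mouse 66 and StressPP mice 70 and 75, and no NP mouse did. A range of levels given for this cluster is over those 3 mice, except for Nrg1 below. Ndnf, a secreted neuronal growth and survival factor, stood at 605 CPM (444 to 667 in the 3 mice) against 3.8 in the Pde11a and Lhx6 cluster and 16.7 in the other members. Reln, the extracellular guidance protein reelin, stood at 3151 CPM (2186 to 3296) against 618 and 179. Kit, a receptor tyrosine kinase, was at 706 CPM (640 to 757) against 15.2 and 16.6. The transcription factors Lhx6 and Nkx2-1, which specify medial ganglionic eminence interneurons, had no UMI in the 111 members of this cluster, which allows a share of nuclei with a UMI of up to 2.70% and a level of up to 2.08 CPM. Dock5 (184 CPM), the cannabinoid receptor Cnr1 (262 CPM) and Npas3 (1225 CPM), a transcription factor of caudal ganglionic eminence cells, were also high in it, against 1.56, 20.6 and 50.5 CPM in the Pde11a and Lhx6 cluster.

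The larger cluster, led by Pde11a, Hapln1, Eya4 and Lhx6, was left unnamed because only Lamp5 and Reln of the 4 class markers passed there. The class label did not ask for Lhx6, Nos1 or Npy, the genes given above for medial neurogliaform and ivy cells. Whether this cluster is of that kind was not tested, and the lack of a name does not show that it is another kind. Lhx6 stood at 98.8 CPM in its 391 members and ranged from 40.7 to 157 between the 15 mice, and Nkx2-1 stood at 11.6 CPM (3.42 to 18.1). Nos1, the neuronal nitric oxide synthase, stood at 259 CPM (213 to 344) against 34.0 in the Ndnf cluster, so the 2 clusters did not overlap for Nos1 in any mouse with enough members (13.7 to 70.3 in the Ndnf cluster). Hapln1, a link protein of the extracellular matrix, was at 293 CPM (235 to 390) against 136, and Id2, an inhibitor of basic helix-loop-helix factors, at 91.0 against 31.2. Sox6, Satb1 and Elfn1, from the list of medial ganglionic eminence genes, stood at 8.30, 7.26 and 0.519 CPM in this cluster. In the Lhx6-gated nuclei described below they stood at 311, 149 and 72.4 CPM. Elfn1 was not particular to medial cells, at 144 CPM in the Vip-gated nuclei also described below.

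Npy was present in both, at 348 CPM in the Ndnf cluster and 115 in the Pde11a and Lhx6 cluster, against 15.9 in the other members. Lamp5 itself was at 198 and 184 CPM in the 2 clusters and at 71.3 CPM in the other members, in which the gate had required a UMI. The other members held 95.4 CPM of Slc17a7, 245 of Rgs9 and 148 of Mbp (the oligodendrocyte myelin protein gene), against at most 25.3, 6.40 and 25.7 in the 2 clusters. Gad1, the GABA-synthesising enzyme, was at 771 and 818 CPM in the 2 clusters and 182 CPM in the other members, and Gad2 at 941, 805 and 196 CPM.

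**Figure D3:**
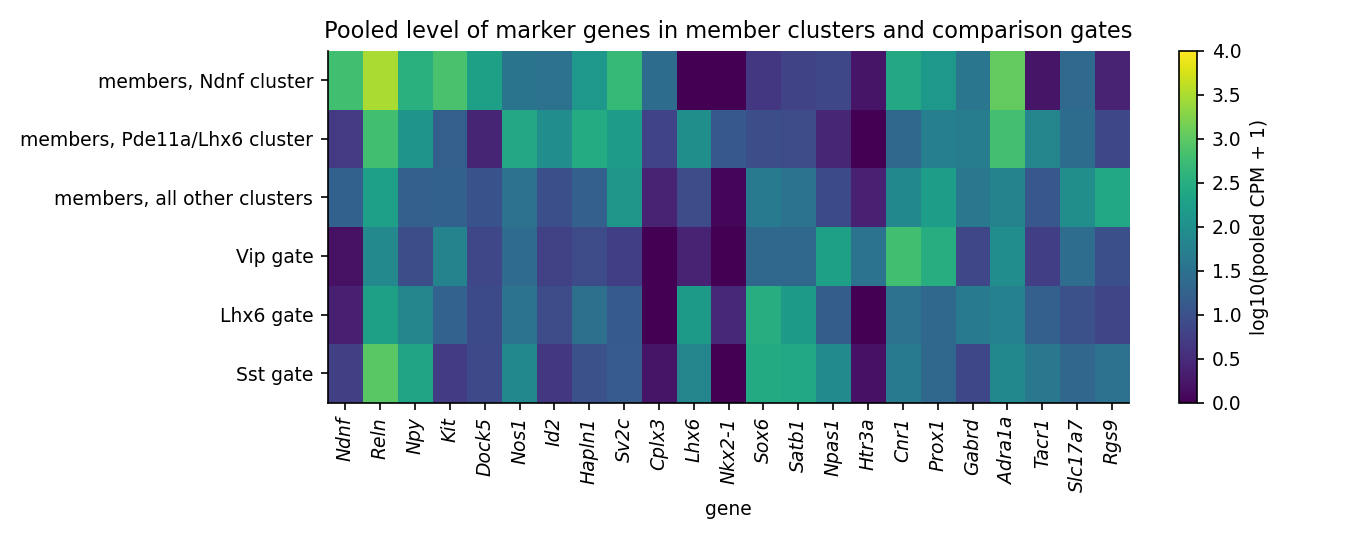
Pooled level of marker genes (colour, log10 of CPM + 1; x axis, genes) in 3 sets of members and in the nuclei of 3 comparison gates (y axis). Ndnf and Kit were high in the Ndnf cluster, Lhx6, Nkx2-1 and Nos1 in the Pde11a and Lhx6 cluster, and Rgs9 and Slc17a7 in the members of all other clusters.

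Pooled levels of receptors for transmitters, peptides and hormones differed between the 2 clusters as well (genes named here and in the next paragraph were singled out after their values were seen). In both paragraphs the Ndnf cluster values pool its 111 members with no range over mice, and only 3 mice gave 10 or more. Adra1a, the alpha-1A adrenergic receptor, stood at 1082 CPM in the Ndnf cluster and 626 in the Pde11a and Lhx6 cluster (422 to 1007 between mice), against 60.5 in the other members. The serotonin receptor Htr2a was at 156 against 52.6 CPM, the histamine receptor Hrh1 at 45.8 against 7.61, and the nicotinic subunit Chrna7 at 536 against 244. The order was the other way round for Htr7, another serotonin receptor (30.5 against 102 CPM), Tacr1, the substance P receptor (0.694 against 64.9, the first of these a single UMI), and Prlr, the prolactin receptor (5.55 against 41.3). Prlr in the Pde11a and Lhx6 cluster ranged from 16.4 to 77.4 CPM between mice.

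The glucocorticoid receptor Nr3c1 stood at 109, 111 and 106 CPM in the Ndnf cluster, the Pde11a and Lhx6 cluster and the other members, values that lay within the range over mice of the Pde11a and Lhx6 cluster (41.1 to 163). The mineralocorticoid receptor Nr3c2 stood at 342, 514 and 906 CPM in the same order. Thrb, a thyroid hormone receptor, was at 1490 CPM in the Ndnf cluster against 310 in the Pde11a and Lhx6 cluster (243 to 475). Erbb4, the neuregulin receptor, was high in both (11344 and 13160 CPM) and lower in the other members (1544 CPM). The GABA-A subunit gene Gabrg3 was at 2920 and 6062 CPM and the kainate receptor gene Grik1 at 3718 and 1791.

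To see how the members as gated differed from other interneurons, they were compared with nuclei of 3 further gates in the same libraries, each with the same gene and Gad1 and Gad2 minimum: 177 nuclei with at least 2 UMIs of Vip, 172 with at least 2 of Lhx6 and at most 2 of Adarb2, and 401 with at least 3 of Sst, all without Lamp5. The Vip gate also kept the members' upper limit on Sst, the Sst gate their limit on Vip, and the Lhx6 gate both. Nuclei above the members' Sst limit were therefore left out of the Lhx6 gate. Of the Vip-gated nuclei 75.7% lay in a cluster led by Vip, Pde5a and Npas1. Of the Lhx6- and Sst-gated nuclei 84.3% and 79.3% lay in a cluster led by Sst, Sox6 and Elfn1. Counts were summed per mouse and side over mice with at least 10 nuclei on both sides (8, 10 and 14 mice) and tested with edgeR's quasi-likelihood test with the mouse as a block and Benjamini-Hochberg adjustment over all genes. The genes that define a gate stayed in the table that was tested but were left out of the list counts and the named genes. Median UMIs per nucleus were 9715, 17988.5 and 16459 in the 3 gates against 13921 in the members.

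Against the Vip gate 1681 of 9268 genes (18.1%) passed an adjusted p of 0.05, 963 higher (10.4%) and 718 lower (7.75%) in the members. Against the Lhx6 gate it was 3116 of 9201 (33.9%; 18.5% higher and 15.4% lower), and against the Sst gate 3881 of 10891 (35.6%; 17.6% higher and 18% lower). The median log2 fold change over all genes was 0.01, 0.04 and -0.01. In the 2 latter comparisons about 1 gene in 3 passed, so a passing gene was nothing unusual there. Sums over the members include the excitatory-like and striatal-like nuclei above: of 6 excitatory neuron markers tested against the Vip gate 3 were higher and none lower, and of 6 striatal projection neuron markers 5 were higher and none lower. Against the Lhx6 gate 4 of 4 and 5 of 7 were higher, and against the Sst gate 5 of 7 and 5 of 7, with 1 striatal marker lower. Astrocyte markers were higher for 3 of 3 against the Lhx6 gate (median log2 fold change 1.91) and for 3 of 3 against the Sst gate (median 1.79), and for 1 of 3 with 1 lower against the Vip gate. Oligodendrocyte markers were higher for 1, 3 and 2 of 6 in the order Vip, Lhx6, Sst, and none was lower. Thalamic or midbrain GABAergic markers were higher for 0 of 1, 2 of 2 and 1 of 3 in that order, with 1 lower against the Sst gate. Their median log2 fold change was 4.50 against the Lhx6 gate. The summed level of 6 astrocyte markers was 363 to 973 CPM per mouse over all members and 159 to 379 in the 2 clusters. That of 6 oligodendrocyte markers was 219 to 813 and 68.6 to 178, with none of them at 0. Within the 2 Lamp5-high clusters 3, 1 and 3 of the excitatory markers that passed lay on the other side of the gate's level, in the same order. The same held for 3, 1 and 3 of the striatal, 1, 1 and 0 of the astrocyte and 1, 3 and 2 of the oligodendrocyte markers. The remaining markers that passed kept their side there. The part of such nuclei in the other differences was not tested gene by gene, and the turned genes of the lists described below are named or counted with each list.

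Of the genes known from neurogliaform and ivy cells, 17 of 24 could be tested against the Vip gate, and 12 were higher and 1 lower in the members (median log2 fold change 2.27). Against the Lhx6 gate 12 of 15 were higher and 1 lower (median 2.12), and against the Sst gate 13 of 16 were higher and 2 lower (median 2.26). Over all genes 10.4%, 18.5% and 17.6% were higher in the order Vip, Lhx6, Sst. All 3 gates excluded Lamp5, which every member had to have, so genes that go with Lamp5 were favoured by the gating. The lists were also chosen with earlier results of these data known. These counts therefore describe the members and do not test the label. Ndnf was at 66.3 CPM ± 29.5 (SD, n = 8 mice) in the members and had no UMI in the Vip-gated nuclei of those mice, so it was at least 29.3-fold higher (3 counts over the 8 mice taken as the floor). Against the Lhx6 gate, with 3 Ndnf UMIs in 10 mice, the ratio of pooled levels was 59.6 (95% counting interval 20.3 to 290), and against the Sst gate the log2 fold change was 3.90 (SE 0.30, adjusted p = 3.0e-10 in edgeR's test). Sv2c, a synaptic vesicle protein, was higher than in each gate, by 4.74 (SE 0.35), 3.55 (SE 0.31) and 3.99 (SE 0.25) on the log2 scale in the order Vip, Lhx6, Sst. Hapln1 was higher by 3.7, 2.05 and 3.8, and Id2 by 3.63, 2.66 and 3.49.

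Over all members, the peptide and reelin genes were not higher than in every gate. Npy was at 69.6 CPM ± 31.2 in the members against 3 UMIs in the Vip-gated nuclei of the 8 mice tested (ratio 31.3, interval 10.7 to 152). Over all 177 Vip-gated nuclei there were 16 Npy UMIs, or 8.06 CPM. Npy was at 67.0 ± 34.7 against 65.8 ± 38.0 CPM in the Lhx6-gated nuclei (log2 fold change -0.06, SE 0.18, adjusted p = 0.85 in edgeR's test). In the 2 clusters the pooled Npy level was 162 CPM, against 67.8 in the Lhx6 gate and 15.9 in the other members. Over all members Npy was lower than in the Sst-gated nuclei in each of 14 mice (log2 fold change -1.33, SE 0.13). Reln was higher than in the Vip gate (628 ± 157 against 45.9 ± 27 CPM, n = 8 mice) and the Lhx6 gate (616 ± 171 against 187 ± 113 CPM, n = 10 mice) and lower than in the Sst gate (584 ± 167 against 980 ± 249 CPM, n = 14 mice). Over the 2 clusters together Reln lay above the Sst gate's pooled level of 948 CPM, but only the Ndnf cluster did (3151 CPM), while the 391 members of the Pde11a and Lhx6 cluster stood at 618 CPM. Nos1 was higher than in all 3 gates (log2 fold changes 2.01, 1.89 and 1.24). Kit was higher than in the Lhx6 gate (2.12) and the Sst gate (4.13), and differed from the Vip gate by 0.60 (SE 0.23, adjusted p = 0.068 in edgeR's test).

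Genes of the 2 ganglionic eminences gave a different picture in each comparison. Of 15 caudal ganglionic eminence genes tested against the Vip gate, itself of caudal origin, 14 were lower in the members and none higher (median log2 fold change -2.68). The caudal list includes Htr3a, Cnr1, Cck, Calb2, Sncg, Crh and Tac2, which are also markers of Vip and Cck basket cells. The Vip gate required Vip and the members had none, so origin and Vip cell identity cannot be told apart in this count. Npas1 was lower by 4.69 on the log2 scale (7.1 ± 6.03 against 179 ± 45.2 CPM), Htr3a, the ionotropic serotonin receptor, by 4.92, Cnr1 by 2.98 and Prox1, a homeobox factor of these cells, by 1.39. Against the Lhx6 gate 5 of 9 such genes were higher and 1 lower, with Prox1 higher by 2.43 and Cnr1 by 1.30, and against the Sst gate 4 of 11 were higher and 4 lower. Prox1 and Cnr1 kept their side of the Lhx6 gate within the 2 Lamp5-high clusters. The part of the excitatory-like members, 120 and 100 of which lay in the 2 clusters with Glis3 and Chst9, in the size of the Prox1 difference was not tested. Of 12 medial ganglionic eminence genes 11 were lower than in the Lhx6 gate and 1 higher (median -1.78), and of 13 against the Sst gate 11 were lower and 1 higher (median -1.02). Over all genes 15.4% and 18% were lower in these 2 comparisons. The Lhx6 gate required Lhx6 and at most 2 Adarb2 UMIs, against at least 3 in the members, and the Sst gate required Sst. Origin and the genes used by the gates therefore cannot be told apart in the medial or caudal counts of these 2 comparisons. Of the members, 606 also lay outside the 2 Lamp5-high clusters. Sox6 had a log2 fold change of -3.31 against the Lhx6 gate (32.6 ± 15.6 against 315 ± 73.3 CPM) and of -3.19 against the Sst gate, and Elfn1 of -3.92 and -6.29. Against the Vip gate the medial genes split into 3 higher, 5 lower and 4 that did not pass, with Nxph1, a neurexin ligand, higher by 5.08 and Elfn1 at -6.02.

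For several genes the members' side of the gate level turned when only the 2 Lamp5-high clusters were considered, by the CPM pooled over all nuclei of each set and with no test. Among the medial genes this held for Maf and Erbb4 against the Vip gate, for Maf, Erbb4 and Nxph1, among others, against the Lhx6 gate, and for Lhx6, Kcnc1 and Nxph1, among others, against the Sst gate. Among the caudal genes it held for Synpr against the Lhx6 gate. Among the neurogliaform and ivy cell genes it held for Reln against the Sst gate. Some turns were small, with Maf at 441.1 CPM in the 2 clusters against 437.6 CPM in the Lhx6 gate. Rxrg had 1 UMI in the 2 clusters, 1 in all Vip-gated and 3 in all Sst-gated nuclei, too few to place it on either side, and 185 of the members' 186 Rxrg UMIs were in the other members. Sox6, Satb1 and Elfn1 kept theirs against the Lhx6 and Sst gates.

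**Figure D4:**
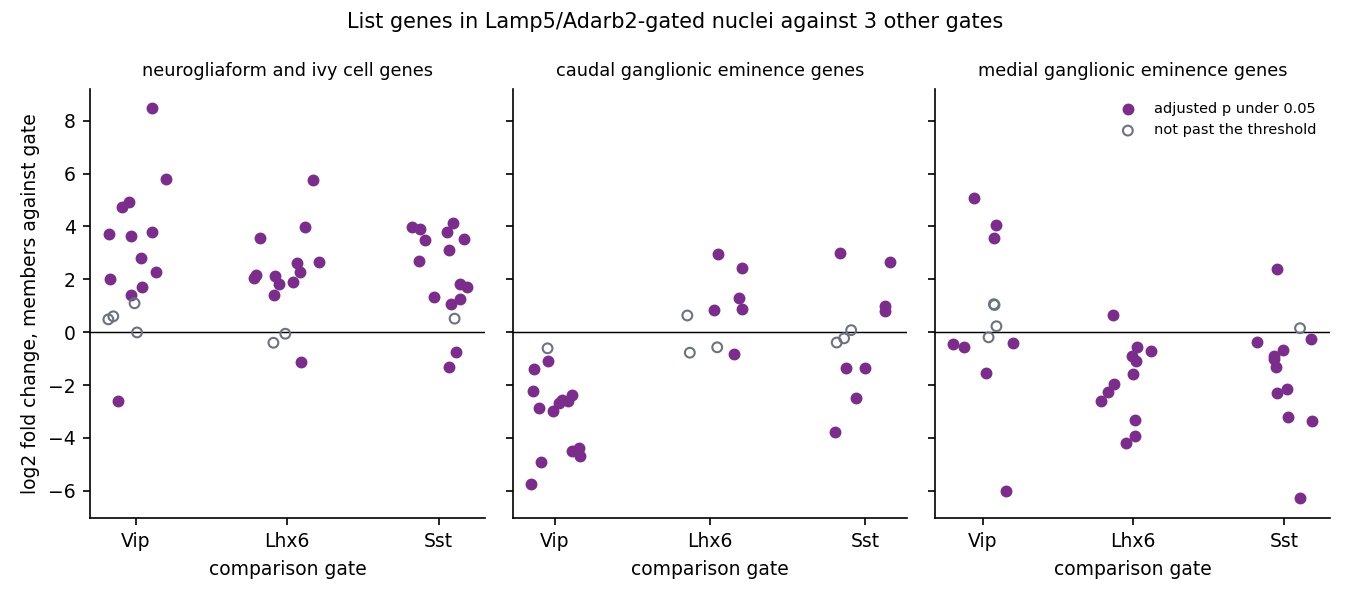
Log2 fold change of list genes (y axis) in the members against the Vip, Lhx6 and Sst gates (x axis), for 3 gene lists, with 1 point per gene tested; filled points passed an adjusted p of 0.05 in edgeR's test, and the height of a gene with no UMI on 1 side depends on the fit's prior count. The neurogliaform and ivy cell genes lay mostly above 0 in each comparison (12 of 17, 12 of 15 and 13 of 16 passed as higher), and 14 of 15 caudal ganglionic eminence genes passed as lower against the Vip gate. Over all genes 10.4%, 18.5% and 17.6% passed as higher, and 7.75% as lower against the Vip gate.

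GABA receptor genes were higher in the members more often than lower, with 8 of 14 higher and none lower against the Vip gate, 7 of 14 higher and 1 lower against the Lhx6 gate, and 11 of 15 higher and 3 lower against the Sst gate, where 10.4%, 18.5% and 17.6% of all genes were higher. Gabra2 passed against the Vip and Sst gates but lay on the other side of their levels within the 2 clusters. Gabra5, an extrasynaptic GABA-A receptor subunit, was at 116 ± 17.1 CPM against 26.3 ± 10.7 in the Vip gate (n = 8 mice, log2 fold change 2.11), at 112 ± 18.1 against 27.8 ± 13.7 in the Lhx6 gate (n = 10 mice, 2.15) and at 115 ± 19.8 against 28.4 ± 11.7 in the Sst gate (n = 14 mice, 1.93), higher in every mouse. Gabra5 was at a similar pooled level in all kinds of members: 90.9 CPM in the Ndnf cluster, 129 in the Pde11a and Lhx6 cluster and 108 in the others. Gabra4 (1.13, 1.35 and 2.12) and the GABA-B receptor gene Gabbr2 (1.29, 0.44 and 0.89) were also higher than in each gate. Gabrd, the delta subunit of extrasynaptic receptors, was higher than in the Vip gate (2.82) and the Sst gate (2.69), and at 36.8 ± 12.2 against 51.1 ± 26.7 CPM in the Lhx6 gate did not pass (adjusted p = 0.083 in edgeR's test). Genes of GABA synthesis, release, uptake and breakdown (a list without Gad1 and Gad2) were higher for 1, 1 and 3 and lower for 3, 4 and 6 of 11, 11 and 12 tested in the order Vip, Lhx6, Sst. Slc32a1, the vesicular GABA transporter, was lower than in the Lhx6 gate (-0.68) and in the Sst gate (-0.68). Within the 2 clusters it lay above the Lhx6 gate's level, and Dlx1 turned against the Lhx6 and Sst gates.

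Among the monoamine and acetylcholine receptors 8 of 17 were higher and 5 lower against the Vip gate, 8 of 16 higher and 1 lower against the Lhx6 gate, and 9 of 18 higher and 2 lower against the Sst gate. Of all genes 10.4%, 18.5% and 17.6% were higher in that order, and 7.75%, 15.4% and 18% lower. Among the receptors that passed, Htr4 and Chrm2 turned within the 2 clusters against the Vip gate, Htr4 against the Lhx6 gate, and Htr2c and Htr4 against the Sst gate. Adra1a was higher in each comparison, at 379 ± 104 against 104 ± 48.4 CPM in the Vip gate (n = 8 mice), 366 ± 116 against 70.8 ± 66.9 in the Lhx6 gate (n = 10 mice) and 351 ± 105 against 68.6 ± 28.3 in the Sst gate (n = 14 mice). The log2 fold changes were 1.92 (SE 0.17), 2.6 (SE 0.33) and 2.22 (SE 0.20). Chrna7 was higher by 0.72, 2.31 and 1.15. Chrm3, a muscarinic receptor, was lower than in the Vip gate (-2.29) and the Sst gate (-1.70). The dopamine receptor gene Drd1 was higher in the members by 1.61 against the Lhx6 gate and 3.28 against the Sst gate, but its pooled level was 35.6 CPM in the members outside the 2 clusters and 7.63 and 5.02 CPM in the Ndnf cluster and the Pde11a and Lhx6 cluster.

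Hormone and stress receptor genes were higher for 2 and lower for 1 of 12 against the Vip gate, higher for 7 and lower for 1 of 11 against the Lhx6 gate, and higher for 3 and lower for 1 of 11 against the Sst gate. Of all genes 10.4%, 18.5% and 17.6% were higher in the same order, and 7.75%, 15.4% and 18% lower. Nr3c2 was higher than in the Lhx6 gate (740 ± 109 against 297 ± 68.2 CPM, log2 fold change 1.33) and the Sst gate (737 ± 96.4 against 307 ± 87 CPM, 1.28), and was at 749 ± 93.0 against 828 ± 138 CPM in the Vip gate (-0.11, SE 0.12, adjusted p = 0.66 in edgeR's test). Its level in the 2 Lamp5-high clusters was lower, at 472 ± 76.7 CPM (15 mice), below the Vip gate and above the other 2 gates, while the other members were at 961 ± 213 CPM. Nr3c1 was higher than in the same 2 gates by 0.82 and 0.93. Prlr had 2 UMIs in the Vip-gated nuclei of the 8 mice tested (ratio 16.2, counting interval 4.43 to 135; 4 UMIs over all 177 nuclei) and was higher than in the Lhx6 gate by 1.66 and the Sst gate by 1.42. Thrb was lower than in each gate (-1.39, -1.01 and -0.83), although the Ndnf cluster held 1490 CPM of it.

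Ion channels and receptors for glutamate went both ways. For the counts of this paragraph, the shares of all genes that were higher were 10.4%, 18.5% and 17.6% in the order Vip, Lhx6, Sst. Those that were lower were 7.75%, 15.4% and 18%. Potassium channel genes were higher for 13 and lower for 8 of 32 against the Vip gate, higher for 16 and lower for 12 of 32 against the Lhx6 gate, and higher for 16 and lower for 11 of 33 against the Sst gate. Kcnd2, an A-type channel, was higher in each (1.49, 1.62 and 1.19), and Kcnc2, a channel of fast-spiking cells, was lower in each (-1.54, -2.26 and -2.30). Glutamate receptors were higher for 5, 10 and 6 and lower for 9, 5 and 10 of 22, 22 and 23. Neuropeptide and peptide receptor genes were higher for 5, 5 and 7 and lower for 7, 3 and 5 of 15, 11 and 17. Glucocorticoid-responsive genes were higher for 1, 4 and 6 of 7 and lower for 2, 0 and 0, and immediate early genes were higher for 0, 4 and 5 of 6, 5 and 8 and lower for none. Within the 2 clusters Fkbp5 and Klf9, among the 6 glucocorticoid-responsive genes higher than in the Sst gate, lay on the other side of its level. The side also turned there for 4, 1 and 4 of the potassium channel genes that passed, for 2, 4 and 3 of the glutamate receptors and for 1 peptide gene, Penk, against the Sst gate.

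Further genes were taken from the 10 with the largest change in each direction among those with at least 50 CPM. Vcan, a matrix proteoglycan, was at 172 ± 45.9 against 4.62 ± 7.47 CPM in the Vip gate (log2 fold change 5.40) and higher by 4.18 than in the Lhx6 gate. Pde11a, a cyclic nucleotide phosphodiesterase, was higher by 4.77 than in the Vip gate and by 6.73 than in the Sst gate (446 ± 140 against 3.97 ± 3.52 CPM), and Egfr, the epidermal growth factor receptor, by 6.13 than in the Sst gate. Hcrtr2, an orexin receptor, was higher than in the Sst gate by 3.92. On the lower side, Crhbp, the binding protein for corticotropin-releasing hormone, had 10 UMIs in the members and 504 in the Sst-gated nuclei of 14 mice. Grpr and Wnt5b were lower than in the Vip gate by 6.06 and 4.99, and Tll1 and Il1rapl2 lower than in the Lhx6 gate by 3.90 and 3.78. Glis3, Gpc4 and Chst9 were among the largest against the Lhx6 gate (4.47, 4.32 and 4.15), and at 43.9, 19.7 and 18.1 CPM in the 2 clusters against 357, 89.4 and 123 in the other members they were carried mostly by nuclei outside them.

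The members were also split by Lhx6, which the gate had not used: 313 had a UMI (275 of them in the Pde11a and Lhx6 cluster) and 795 did not. With 15 mice, 2947 of 9031 genes (32.6%) passed edgeR's test, 1309 higher (14.5%) and 1638 lower (18.1%) with Lhx6. Nos1 (243 ± 57.6 against 59.4 ± 33.9 CPM), Id2, Hapln1 and Eya4 were higher in the nuclei with Lhx6 by 2.19, 2.31, 2.19 and 2.77, and Ndnf and Kit were lower by 4.06 and 2.85. Rgs9, a striatal gene, was lower by 3.86, and 6 of 7 striatal markers and 4 of 5 excitatory markers were lower in the nuclei with Lhx6. Npy was higher by 1.02, in 15 of 15 mice, and Reln differed by -0.05 (SE 0.16, adjusted p = 0.85 in edgeR's test). The nuclei without Lhx6 were mostly of other clusters, and between the Ndnf cluster and the Pde11a and Lhx6 cluster the order of Npy was the reverse (348 and 115 CPM) and Reln was at 3151 and 618 CPM.

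The groups of mice were compared first by the share of members among barcodes with at least 1000 genes. In NP mice the share was lowest at 0.667%, had a median of 0.832% and was highest at 1.19%. In ControlPP mice it was 0.856%, 0.942%, 0.483% and 0.624%, and in StressPP mice 1.05%, 1.25%, 1.12%, 1.29% and 0.595%. All 3 groups overlapped. The means were 0.893% ± 0.211 (SD, n = 6), 0.726% ± 0.210 (n = 4) and 1.06% ± 0.278 (n = 5). In a two-sided exact permutation test ControlPP minus NP was -0.166 points (p = 0.27), StressPP minus ControlPP 0.336 (p = 0.095) and StressPP minus NP 0.169 (p = 0.28), each with an adjusted p of 0.28 over the 3 comparisons. The smallest p these group sizes allow is 0.0095, 0.016 and 0.0043. Without StressPP mouse 90, the lowest of its group, the 2 differences that include StressPP were 0.453 (exact p = 0.029) and 0.286 (exact p = 0.048), both with an adjusted p of 0.071. Within batches 2 and 3 ControlPP minus NP was -0.219 and -0.22, StressPP minus ControlPP 0.161 and 0.418, and StressPP minus NP -0.0582 and 0.198, and batch 1 held no ControlPP mouse.

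As shares of GABAergic barcodes the members were at 7.89% ± 1.27, 8.43% ± 3.09 and 7.93% ± 1.15. This denominator, which included the excitatory-like clusters, turned the direction of the first and the second comparison. The members in the 2 Lamp5-high clusters, a restriction chosen after the data were seen, were at 0.368%, 0.405% and 0.476% in NP, ControlPP and StressPP, a difference of 0.0364 points between ControlPP and NP (exact p = 0.65). StressPP minus ControlPP was 0.0711 points there (exact p = 0.51), against 0.336 over all members. Barcodes of at least 3000 UMIs were also thinned to 3000, with shallower ones left out of both the members and the denominator. Then 216 members were left, at 0.222%, 0.225% and 0.257%, and StressPP minus ControlPP was 0.0319 points (exact p = 0.67) on these lower shares. In the mean the striatal-like members were ordered as the shares, at 11.7 per NP mouse, 3 per ControlPP mouse and 17.2 per StressPP mouse. Their medians were 0.5, 3.5 and 10, with NP and ControlPP in the other order, and StressPP mouse 70, with a share of 1.25%, had 0. The part of these members in the differences was not tested. The Ndnf cluster gave 4 to 6 members per NP mouse, 7 to 15 per ControlPP mouse and 5 to 13 per StressPP mouse, from different numbers of barcodes. A share counts nuclei recovered, and a loss of cells, a smaller punch share or a lower Lamp5 level per nucleus cannot be told apart in it.

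Gene by gene, none of 10276 genes passed an adjusted p of 0.05 in edgeR's test between any 2 groups (0%) over all members. DESeq2 called 0 as well. At an unadjusted p under 0.05 edgeR gave 456 genes for ControlPP minus NP, 363 for StressPP minus ControlPP and 245 for StressPP minus NP. That was 4.44%, 3.53% and 2.38% of those tested, and DESeq2 gave 367, 262 and 155 genes. With 1 mouse at a time left out, edgeR gave 319 to 670, 223 to 599 and 183 to 353. The smallest adjusted p was 0.955, 1.00 and 1.00. Within the 2 clusters 0 of 7162 genes passed (0%), with 345, 199 and 295 at an unadjusted p under 0.05 and a smallest adjusted p of 0.392, 1.00 and 0.997.

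The genes named for the label and for the hormones of the experiment did not pass. Ndnf over all members was at 58.0 ± 25.8 CPM in NP, 73.5 ± 24.1 in ControlPP and 60.4 ± 31.7 in StressPP, with ranges that overlapped. Prlr was at 24.9 ± 10.3, 27.5 ± 12.9 and 19.1 ± 5.33 CPM, Nr3c1 at 97.0 ± 16.7, 106 ± 20.3 and 112 ± 7.31, and Nr3c2 at 724 ± 57.2, 749 ± 57.8 and 744 ± 152. Npy in the 2 clusters was at 71.7 to 248 CPM (median 186) in NP mice, at 230, 72.7, 64.4 and 69.0 CPM in ControlPP mice and at 146, 171, 609, 135 and 45.0 CPM in StressPP mice. One mouse stood apart in each of the 2 PP groups, and the fitted log2 fold changes were -0.57 (SE 0.49), 0.93 (SE 0.49) and 0.36 (SE 0.44) in the order ControlPP minus NP, StressPP minus ControlPP, StressPP minus NP. No gene of any list was called in any of the 3 comparisons, over all members or in the 2 clusters.

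A few genes at small unadjusted p are described because of what moved with them, and all were singled out after their values were seen. Nrg1, the neuregulin that Erbb4 binds, was at 113 to 332 CPM (median 227) in NP mice in the 2 clusters, at 854, 308, 779 and 449 CPM in ControlPP mice and at 268, 637, 733, 518 and 397 CPM in StressPP mice. The log2 fold change was 1.42 for ControlPP minus NP (SE 0.30, unadjusted p = 9.6e-05, adjusted p = 0.392 in edgeR's test) and 1.19 for StressPP minus NP (SE 0.28, unadjusted p = 0.00040, adjusted p = 0.997), and -0.23 for StressPP minus ControlPP. Nrg1 also differed with the kind of nucleus, at 936 CPM in the Ndnf cluster, 302 in the Pde11a and Lhx6 cluster and 2410 in the other members, and the median number of members in the Ndnf cluster was 5 in NP, 9 in ControlPP and 7 in StressPP mice. Within the Ndnf cluster the pooled level was 484 CPM in NP, 1176 in ControlPP and 1060 in StressPP, and within the Pde11a and Lhx6 cluster 184, 388 and 344 CPM. The mice overlapped in both. With all mice taken, those of few nuclei included, NP mice reached 1094 CPM in the Ndnf cluster, from 4 to 6 nuclei each. There ControlPP mice were at 982 to 2125 CPM and StressPP mice at 938 to 1223 CPM. In the Pde11a and Lhx6 cluster NP mice were at 98.6 to 252 CPM, ControlPP mice at 195 to 776 and StressPP mice at 143 to 579. The part of cluster numbers in the Nrg1 difference was not tested. Over all members the log2 fold change of ControlPP minus NP had the other sign (-0.31, SE 0.52).

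Klf9, a glucocorticoid-responsive transcription factor, was at 63.6 to 94.4 CPM (median 80.5) over all members of NP mice, at 61.5, 60.2, 56.4 and 47.1 CPM in ControlPP mice and at 99.1, 88.8, 104, 87.3 and 60.0 CPM in StressPP mice. ControlPP mice lay below all NP mice and overlapped with 1 StressPP mouse. The log2 fold change was -0.46 for ControlPP minus NP (SE 0.15, unadjusted p = 0.0086, adjusted p = 0.955 in edgeR's test) and 0.64 for StressPP minus ControlPP (SE 0.16, unadjusted p = 0.00080, adjusted p = 1.00). In the 2 clusters the same differences were -0.01 (SE 0.31) and 0.06 (SE 0.31), and the groups overlapped. In the members outside the 2 clusters the pooled Klf9 level was 102 CPM in NP, 72.9 in ControlPP and 120 in StressPP. Of 7 glucocorticoid-responsive genes tested over all members, 2 were higher and 1 lower in StressPP than in ControlPP at an unadjusted p under 0.05 in edgeR's test. The median log2 fold change of the 7 was 0.08.

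Striatal genes moved with the uneven spread of striatal-like nuclei. The summed level of the 8 striatal projection neuron markers over all members was 356 to 2747 CPM (median 426) in NP mice, 346 to 805 (median 530) in ControlPP mice and 394 to 2063 (median 1104) in StressPP mice, with no marker at 0. In the 2 clusters the sum was 254 to 393 CPM over the 15 mice. Ppp1r1b, the striatal phosphoprotein DARPP-32, differed by 3.02 (SE 1.24, unadjusted p = 0.026, adjusted p = 1.00 in edgeR's test) between StressPP and ControlPP over all members. Of 7 striatal markers tested 3 were at an unadjusted p under 0.05 in that comparison, all higher in StressPP. The part of the striatal-like nuclei in these differences was not tested.

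**Figure D5:**
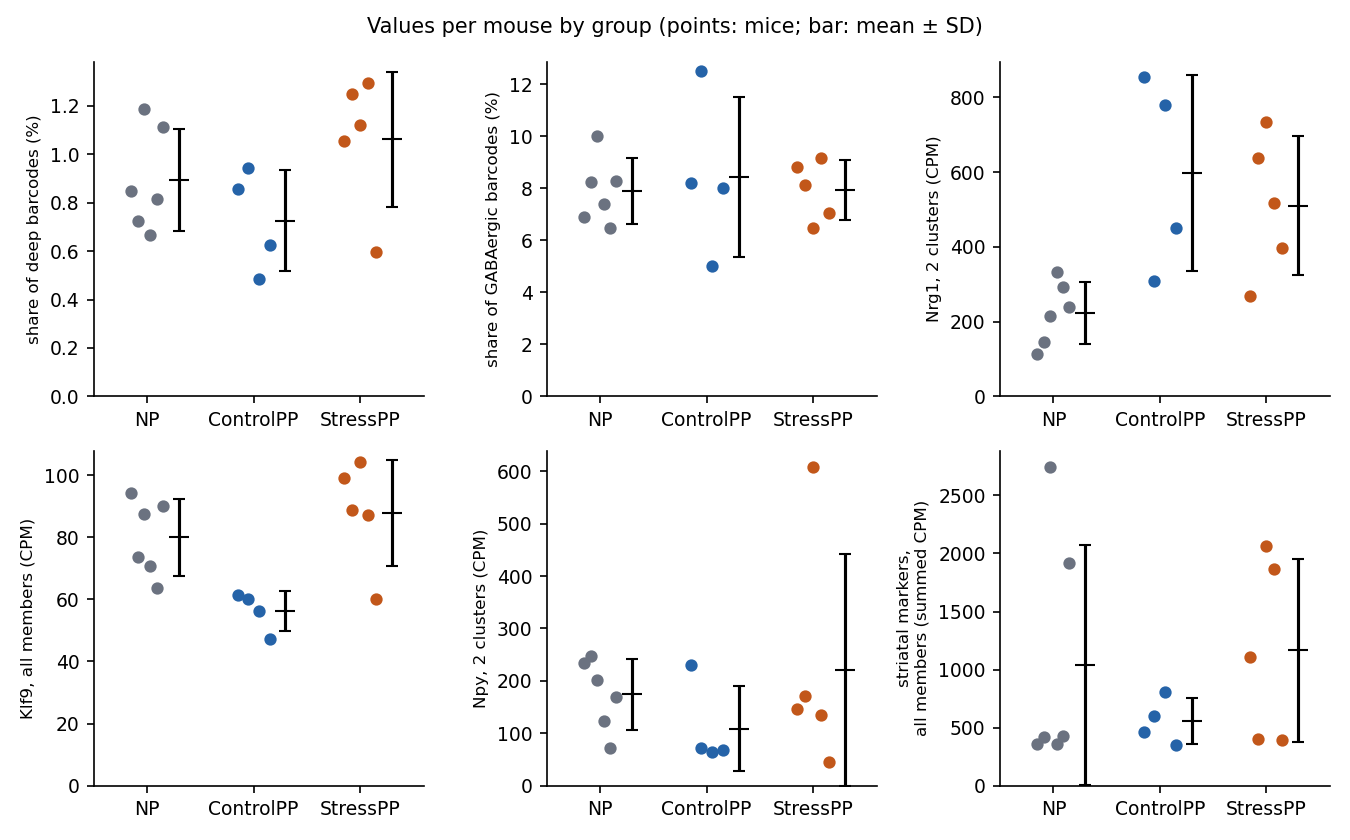
Values per mouse in the NP, ControlPP and StressPP groups (x axis), with points for mice and bars for the mean ± SD: members as a share of barcodes with at least 1000 genes (called deep in the axis label) and of GABAergic barcodes (%), Nrg1 and Npy in the 2 Lamp5-high clusters (CPM), Klf9 over all members (CPM) and the summed striatal markers over all members (CPM). The shares of the 3 groups overlapped, Nrg1 was 113 to 332 CPM in NP mice against 308 to 854 in ControlPP mice, and the striatal sum reached 2747 CPM in 1 NP mouse.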

How the data were processed

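Single-nucleus RNA sequencing (10x Chromium 3' v3.1) was deposited by the authors as filtered matrices of UMI counts, 32285 genes by barcode, 1 matrix per mouse. The counts are raw, with no correction for free RNA or doublets. The file headers name Cell Ranger 7.0.0 and a GRCm38 reference, while the submitters' processing notes name version 7.1.0 and list both mm10 and GRCm39. Libraries held 40602582 to 96211264 UMIs. Groups and batches came from the labels, and no column of per-sample values was left unused (0).

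The members and gene lists were chosen with earlier results of these data known. GABAergic barcodes were clustered in scanpy 1.11.5 on 1995 variable genes (30 principal components, 15 neighbours, Leiden resolution 1), leaving the gate and class marker genes out. A cluster was named from its markers when at least 3 of a list reached 5 CPM and 2 times the median cluster and 1 or more stood among its 10 leading genes, or, for excitatory neurons, when Slc17a7 reached 100 CPM. Doublet scores were only an alternative, at 0.8% per 1000 barcodes. The counts of members were summed per mouse and tested with edgeR 4.0.16 in R 4.3.3 (filterByExpr, TMM, quasi-likelihood), all 3 groups in 1 fit, and with the mouse as a block against other gates. DESeq2 1.42.0 was an alternative. CPM are a gene's counts over all UMIs of the set, on the standard CPM scale. For shares, exact permutation tests (two-sided, scipy 1.17.1) were adjusted by Benjamini-Hochberg over the 3 comparisons. Counting intervals (95%) and floors (3 counts) cover counting error only. Each mouse is 1 library. The genes named were the 10 with the largest change in each direction at 50 CPM or more, plus genes of the lists and those stated as singled out after their values were seen. All fits were tested on simulated counts. Results for some genes are not reported here.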

Additional observations from a re-analysis of the deposited data

Results flagged for a closer look

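In 90 groups of 4 to 6 mice checked for a mouse apart from the others (the gap to its nearest neighbour over the group's range against Dixon's 95% value), 5 were found, and chance gives about 1 in 20. NP mouse 73 had a median of 20504 UMIs per member, with the next NP mouse at 14891. Npy in the members of the 2 Lamp5-high clusters was at 230 CPM in ControlPP mouse 66, with the next at 72.7, and at 609 CPM in StressPP mouse 75, with the next at 171. In mouse 75 Npy was at 1536 CPM in the Ndnf cluster and 315 in the Pde11a and Lhx6 cluster, the highest StressPP value in each. Prlr in the same members was at 69.8 CPM in NP mouse 63, with the next at 34.3. Drd1 there was at 20.0 CPM in NP mouse 27, with the next at 4.92.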

How the results depend on the processing

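The difference in member share passed the threshold after adjustment under none of the alternatives that gave a p (the within-batch values had none), the lowest adjusted p being 0.071 without StressPP mouse 90. For ControlPP minus NP its direction turned with GABAergic barcodes as the denominator (0.542 points) and with barcodes of at least 3000 UMIs thinned to 3000 (0.00349). It also turned there with only members of the 2 Lamp5-high clusters (0.0364, a restriction chosen after seeing the data). For StressPP minus ControlPP it turned with the GABAergic denominator (-0.504), and for StressPP minus NP within batch 2 (-0.0582). The cause was not tested. Leaving out 1 mouse at a time gave -0.238 to -0.0854, 0.255 to 0.453 and 0.112 to 0.286 for the 3 comparisons. With at least 2 Lamp5 UMIs required, the differences were -0.00758, 0.161 and 0.153 points (exact permutation p = 0.92, 0.14 and 0.056). Without the highest doublet scores they were -0.164, 0.269 and 0.105 points (exact permutation p = 0.22, 0.13 and 0.46). All 24 alternatives per comparison, DESeq2, batch as a term and leaving out each mouse included, gave 0 genes between groups. Against the gates only thinning nuclei to 3000 UMIs moved the counts by over 1.5 times, to 816 (Vip), 952 (Lhx6), 1444 (Sst) and 1169 (Lhx6 split), with fewer genes tested. Leaving out 1 mouse at a time gave 1439 to 1604, 2774 to 3061, 3537 to 3820 and 2666 to 2959. Of single genes, Rxrg against the Vip gate had a fitted value of -0.73 under DESeq2, which is no measure of the fold, since in the 8 mice tested the gate held 0 Rxrg UMIs and the members 105 (at least 4.95-fold higher, with a floor of 3 counts over the gate). Nrg1 turned in the 2 clusters (1.42) and without NP mouse 35 for ControlPP minus NP (-0.667 to 0.228 leaving out 1 mouse at a time) and with an equal number of members per mouse (-0.0298) for StressPP minus NP. No paired analysis was possible because the replicate numbers only name mice in accession order and the labels tie no mouse of one group to a mouse of another. The Ndnf cluster is limited by its number of nuclei, with 111 members and 10 or more in only 3 mice. With 42 to 124 members per mouse, the absence of called genes between groups does not show that levels were equal.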
